A study of Mus musculus with 12 samples.

Results

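Gonads of XY and XX mouse embryos that are both labelled as Cbx2 knockout were compared at stage E11.5, with 3 arrays for knockout XY and 3 for knockout XX, or 6 of the 12 arrays of the series. All 4 groups of the series came from matings of Cbx2 heterozygotes and were aged by tail somite number. The other 6 arrays were wild-type XX and wild-type XY gonads of the same age, 3 each. They serve here for the same sex contrast in wild type, set beside that in knockout. They also enter the estimate of spread shared by all 4 groups and the choice of each gene's probe set. Each array held gonadal cells that were cut by laser from 30 µm frozen sections, chosen by GATA4 staining and tissue form, and pooled from 2 or 3 embryos. From each pool 15 ng of RNA was amplified in a 2-cycle protocol, so an array is a pool and not an embryo. Neither the strain nor the part of Cbx2 that the allele lacks is named in the labels. Of 18193 genes with a probe set of their own, the 17404 on autosomes were compared, each through its brightest probe set. Values are log2 intensities, and a difference of 1 is a 2-fold difference. Differences are XY minus XX and carry a standard error (SE), and to pass means an adjusted p (Benjamini-Hochberg, limma) under 0.05.

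At this stage the gonad of either sex can still form a testis or an ovary. In XY embryos the Y-linked factor Sry switches on Sox9 in supporting cells, and Sox9 with Fgf9 drives Sertoli cell fate. In XX embryos Rspo1 and Wnt4 act through beta-catenin, and together with Foxl2 and Fst they direct the ovarian course. Cbx2 is a chromobox subunit of Polycomb repressive complex 1 (PRC1), which binds chromatin and represses developmental genes. Loss of Cbx2 is known to turn XY mice from male to female development. The comparison asks which autosomal genes still differ between XY and XX gonads once Cbx2 is missing.

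The sex of each label was borne out by sex-linked genes. Xist, the RNA that silences 1 X chromosome, lay at 12.65, 12.88 and 12.86 in the knockout XX arrays and at 5.81, 6.03 and 6.0 in the knockout XY arrays. Eif2s3y, a Y-linked translation factor, lay at 3.73, 3.63 and 3.49 in knockout XX and at 10.13, 9.78 and 9.62 in knockout XY. Cbx2 itself was at 9.28, 9.27 and 9.48 in knockout XX and 9.43, 9.33 and 9.58 in knockout XY, a difference of 0.10 ± 0.12 (adjusted p = 0.764). In wild type the same probe set lay at 8.77, 8.46 and 8.57 in XX and at 8.93, 9.04 and 8.81 in XY, so every array labelled knockout was above every wild-type array. The signal of the targeted gene thus goes against the genotype labels. Where this probe set lies relative to the deleted part is not known here, and the other Cbx2 probe set averaged between 3.87 and 4.09 in all 4 groups. The genotypes rest on the labels alone, and knockout means labelled knockout throughout, also where the genotypes are set against each other. The source field of the wild-type samples names the knockout XX group, against their titles and genotype field, and the latter were used. Markers of the somatic gonad were present in all 6 knockout arrays. The zinc finger factor Wt1 ranged from 10.83 to 11.10, the LIM factor Lhx9 from 11.14 to 11.87, the homeobox factor Emx2 from 10.69 to 11.16, Gata4 from 7.34 to 7.72 and the nuclear receptor Nr5a1 from 7.68 to 8.33. In the wild-type arrays Nr5a1 lay at 9.87 to 10.33, Gata4 at 8.61 to 9.29 and Lhx9 at 12.41 to 12.84, above every knockout array. Wt1 (11.02 to 11.24) and Emx2 (10.90 to 11.30) overlapped the knockout arrays. The knockout sex comparison thus rests on arrays with lower Nr5a1, Gata4 and Lhx9 in both sexes. Array medians over all probe sets lay between 5.88 and 5.94. Sex differences of these 5 genes, chosen as a check of the tissue, ran from -0.13 for Nr5a1 to 0.09 for Wt1.

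The knockout groups differed in the control probe sets that follow RNA length. For Gapdh the 3' probe set minus the 5' one, a gap that widens in broken or shortened RNA, was 4.23, 4.10 and 3.81 in knockout XX. In knockout XY it was 4.96, 4.78 and 5.0, and the groups did not overlap. Means were 4.05 ± 0.22 and 4.91 ± 0.12 (SD, n = 3), a difference of 0.867 with an exact permutation p of 0.1, the smallest that 3 against 3 arrays allow. The Actb 3' minus 5' difference was 3.43 ± 0.31 in knockout XX and 4.45 ± 0.21 in knockout XY, a difference of 1.014 (exact permutation p = 0.1). In both genes the gap sat at the 5' end, where Gapdh differed by -1.04 and Actb by -1.06, against -0.17 and -0.05 at the 3' end. The same measure differed by -0.198 for Pcx and -0.013 for 18S. It is not read for Tfrc, whose 5' probe set lay between 3.13 and 3.33 in the knockout arrays, near the lowest values of the arrays. In wild type the same sex contrast was -0.178 for Gapdh (exact permutation p = 0.7) and 0.083 for Actb (exact permutation p = 0.7). These control differences thus moved with sex in the knockout arrays, where they cannot be told apart from sex. Fits with them as covariates take the slope from spread within groups. For Gapdh that spread was widest in wild type (SD 0.45 in XX and 0.38 in XY). Covariate values given below are therefore extrapolations, and the part of the controls in the gene values was not tested. No scan date or batch is named in the labels.

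**Figure D1:**
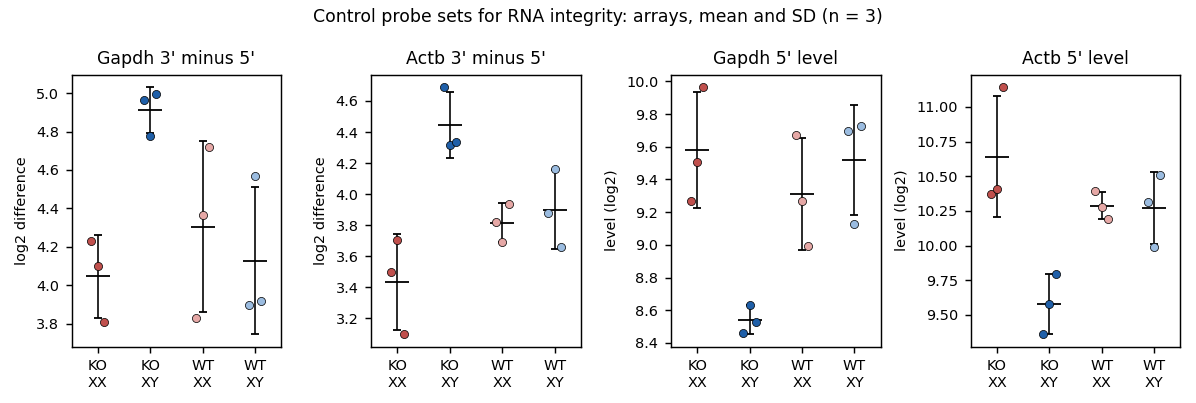
Gapdh and Actb control probe sets in the 4 groups, as 3' minus 5' differences (left panels, log2 difference) and as 5' levels (right panels, log2); points are arrays, horizontal marks group means and bars SD (n = 3). The 3 knockout XY arrays lie at 4.78 to 5.0 for Gapdh and the 3 knockout XX arrays at 3.81 to 4.23, while the wild-type groups overlap.

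One knockout XX array also stood apart. Replicate 1 lay at -28.41 on the first principal component of the 6 knockout arrays (34.4% of the variance), while knockout XX replicates 2 and 3 lay at 1.46 and -6.63 and the knockout XY arrays between 7.26 and 16.69. Knockout XX replicate 1 carried high levels of liver genes, described below, and some of the results that rest on it are also given without it. Across autosomal genes the mean correlation between a knockout XX and a knockout XY array was 0.9932, next to 0.9933 among knockout XX arrays and 0.9952 among knockout XY arrays.

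No autosomal gene passed the test between knockout XY and knockout XX gonads (0 of 17404, 0%). The smallest adjusted p was 0.0655. At an unadjusted p under 0.05 stood 1719 genes (9.88%), 943 higher in XY (5.42%) and 776 lower (4.46%). The direction of that split depended on scaling, with 1174 higher and 575 lower after a second quantile normalization and 707 higher and 915 lower after centring each array on its median. In 2975 genes (17.1%) the 3 arrays of 1 sex all lay above those of the other, 1589 higher in XY (9.13%) and 1386 lower (7.96%). The median difference over all autosomal genes was 0.03. The sex chromosomes supplied every call: Xist (-6.85 ± 0.11) and the X-linked demethylase Kdm6a (-0.86 ± 0.13) were lower in XY. The Y-linked genes Eif2s3y (6.23 ± 0.15), Kdm5d (6.16 ± 0.17), Uba1y (3.93 ± 0.15) and Uty (3.64 ± 0.13) were higher.

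The precision of 3 arrays a group limits which differences in signal could have been missed. The median SE was 0.14 and the median 95% interval reached 0.29 to each side. For 17153 genes (98.6%) the whole interval lay inside a 2-fold difference either way, and for 11628 (66.8%) it lay within 0.5. Only 11127 of the 17404 genes had a mean above 6. For a probe set near background a narrow interval does not bound a difference in transcript. The intervals also leave out the difference in control probe sets between the knockout sexes. Only 12 genes had an estimate of 1 or more in size, 1 higher in XY and 11 lower. The count of 0 was not stable against the choice of arrays. It became 1 without knockout XX replicate 1 or 3 (the amylase Amy1), 1 without knockout XY replicate 2 (the potassium channel Kcnc2), 1 without knockout XY replicate 3 (Olfm4) and 1 without wild-type XY replicate 1 (the monoamine transporter Slc18a2). It became 3 without wild-type XX replicate 1 (Ttc14, Xpo5 and a predicted gene) and 3 without wild-type XX replicate 2 (Olfm4, Tnfrsf21 and a predicted gene), since those arrays add to the shared estimate of spread. With only the 6 knockout arrays in the fit it was 3 (Slc18a2, Ttc14 and a predicted gene). With the Gapdh difference as a covariate 6 genes passed, all lower in XY: the DNA damage kinase Atm, the translation release factor Etf1, the growth factor Fgf5, the Wnt receptor Fzd5, Smpd4 and Ttc14. With the Actb difference as a covariate 0 genes passed and 419 had an unadjusted p under 0.05. These genes were named after their values were seen.

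**Figure D2:**
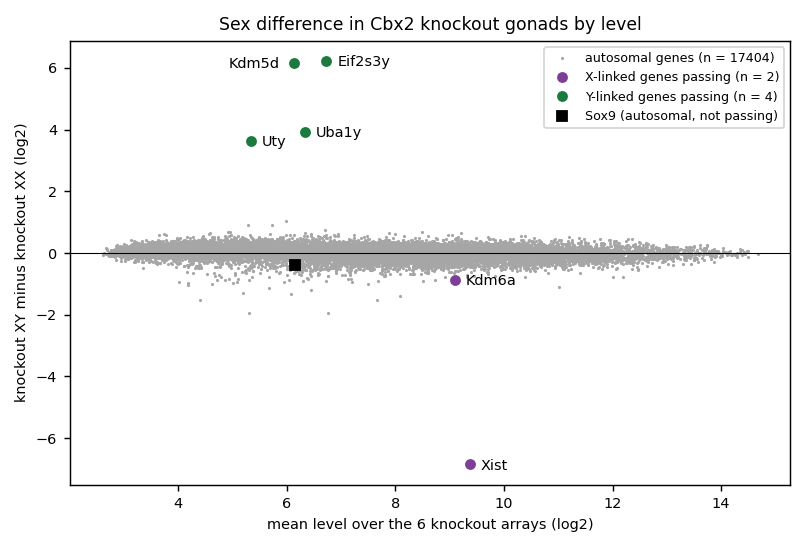
Difference between knockout XY and knockout XX (vertical axis, log2) against the mean level over the 6 knockout arrays (horizontal axis, log2); grey points are the 17404 autosomal genes, coloured points the X-linked and Y-linked genes that passed and the black square Sox9. Xist at -6.85 and the 4 Y-linked genes at 3.64 to 6.23 stand apart, and Sox9 sits at -0.39 within the autosomal cloud.

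Sox9, the factor that sets Sertoli cell fate, showed no XY excess in knockout gonads. It lay at 6.09, 6.79 and 6.15 in knockout XX and at 6.02, 6.14 and 5.70 in knockout XY, so the groups overlapped at a low level. The difference was -0.39 ± 0.18, with a 95% interval from -0.79 to 0.00 (adjusted p = 0.5). Leaving out knockout XX replicate 2, its highest array, gave -0.17. The other Sox9 probe sets gave -0.13 and -0.12. In wild type Sox9 rose from 6.32, 6.48 and 6.14 in XX to 8.96, 8.56 and 8.64 in XY, by 2.41 ± 0.18 (adjusted p = 7.5e-06). The sex difference itself differed between the arrays labelled knockout and wild type by -2.80 in the interaction test (adjusted p = 0.000576). With the Gapdh covariate that value was -2.54 (adjusted p = 0.0961) and with the Actb covariate -3.05 (adjusted p = 0.104), and the adjusted p spanned 0.000104 to 0.104 across alternatives. Sox9 was the only autosomal gene that passed the interaction (1 of 17404, 0.00575%).

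Of 28 listed testis genes 25 were measured, and 0 passed between the knockout sexes. At an unadjusted p under 0.05 stood 1 higher in XY, against a background of 5.42%, and 1 lower, against 4.46%. The median difference was 0.01, beside 0.03 over all autosomal genes, and 13 members were above 0 and 12 below. In wild type, where 10.4% of autosomal genes stood at that level, 9 of the 25 were higher (background 7.23%) and 0 lower (background 3.17%). Without overlap 7 were higher (background 9.99%) and 0 lower (background 3.21%), and the wild-type median was 0.11. The list had been chosen with these wild-type results known.

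The secreted synaptic organiser Cbln4, a gene that follows Sox9 in the fetal testis, had the widest knockout difference of the list, below 0. It lay at 5.39, 5.37 and 5.82 in knockout XX and at 4.92, 4.49 and 4.61 in knockout XY. Every XY array was below every XX array, by -0.85 ± 0.25, but this did not pass (adjusted p = 0.415), and with the Gapdh covariate the difference was -0.41. In wild type Cbln4 averaged 7.70 in XX and 8.54 in XY. Hsd17b3, an enzyme of testosterone synthesis, was at 4.12, 4.17 and 4.14 in knockout XX and at 4.43, 4.53 and 4.46 in knockout XY. The groups did not overlap and the difference of 0.33 ± 0.11 did not pass (adjusted p = 0.431), at a level below the array median in every knockout array.

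None of the other genes with a wild-type excess in XY passed in knockout. Mmd2, a membrane protein gene of early Sertoli cells, was at 6.34, 5.81 and 5.54 in knockout XX and at 5.48, 5.64 and 5.36 in knockout XY (-0.41 ± 0.29, against 1.81 ± 0.29 in wild type). The other Mmd2 probe sets gave 0.108 and 0.285 in knockout and, in the same order, 0.31 and 0.051 in wild type. The signal Fgf9, which sustains Sox9, was at 8.54, 7.72 and 7.88 in XX and at 8.10, 8.60 and 8.30 in XY (0.28 ± 0.36, against 1.42 in wild type). The Fgf9 groups overlapped, and the interval ran from -0.48 to 1.04. The other Fgf9 probe set gave 0.186 in knockout and 0.021 in wild type, without the wild-type excess. Aard, an early Sertoli gene, was at 7.17, 6.94 and 7.27 in XX and at 7.46, 7.13 and 7.53 in XY (0.25 ± 0.25, against 1.27). The cystatin Cst9 differed by -0.05 ± 0.35 (1.20 in wild type), the calcium-binding tescalcin gene Tesc by 0.24 ± 0.34 (0.76) and the protease Adamts16 by -0.11 ± 0.22 (0.58). Cyp26b1, which degrades retinoic acid in the fetal testis, differed by -0.19 ± 0.13 (0.67 in wild type). With the Gapdh covariate the knockout differences of Aard and Cst9 were 0.77 and 0.89, and neither passed. Over these 9 genes, with Sox9 and Cbln4, knockout differences ran from -0.85 to 0.28 with a median of -0.11, while their wild-type median was 1.20. The 9 were picked by their wild-type values, which are therefore no evidence of their own.

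None of the later Sertoli and testis genes passed in knockout gonads, and none passed in wild type either. Wild-type differences were 0.11 for Amh, -0.46 for Dmrt1, -0.03 for Inhbb and 0.28 for Dhh. The knockout values below therefore show no loss of a sex difference. Amh, the hormone that removes the Müllerian ducts, was at 6.41, 6.47 and 6.45 in knockout XX and at 6.41, 6.76 and 6.58 in knockout XY (0.14 ± 0.11). The factor Dmrt1, which maintains male fate, was at 8.65, 8.0 and 8.04 in XX and at 7.89, 8.34 and 7.55 in XY (-0.31 ± 0.28). The activin and inhibin subunit Inhbb differed by -0.25 ± 0.23, the Sertoli hedgehog signal Dhh by 0.11 ± 0.24, the prostaglandin synthase Ptgds by -0.04 ± 0.14 and the Sox9 relatives Sox8 and Sox10 by 0.21 ± 0.12 and 0.14 ± 0.12. The Fgf9 receptor Fgfr2 differed by -0.08 ± 0.19 and its target Etv5 by -0.30 ± 0.17. The remaining members, Col9a3, Defb19, Erbb4, Mro, Nrg1 and Vnn1, lay between -0.15 and 0.11.

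**Figure D3:**
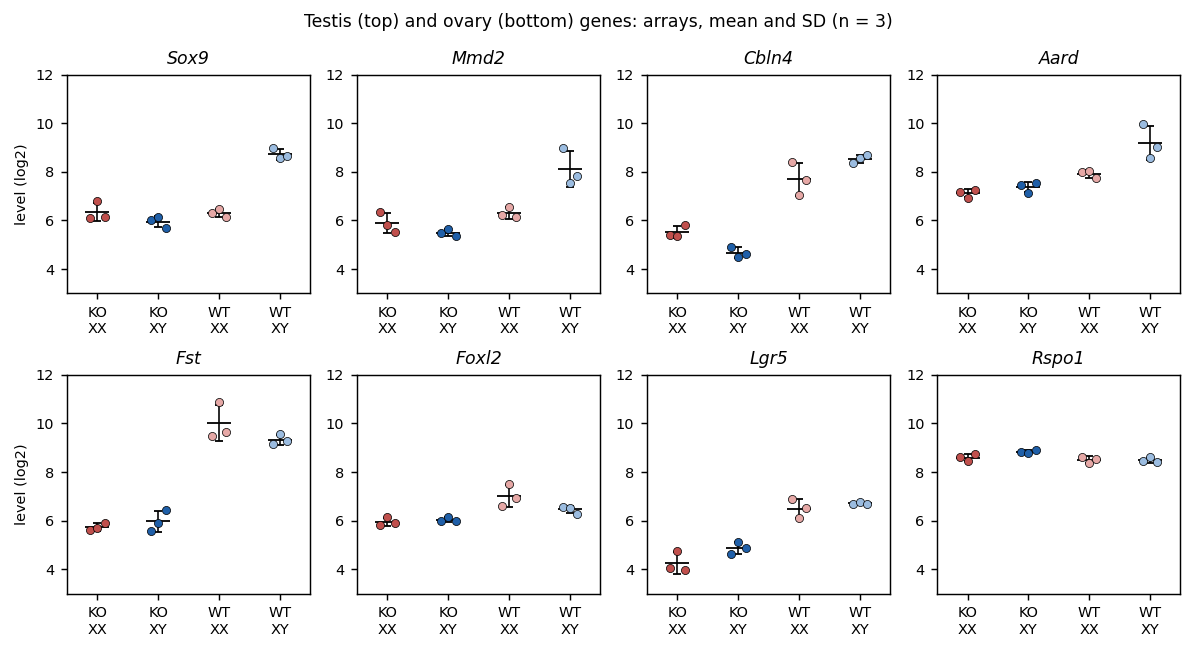
Levels of 4 testis genes (top) and 4 ovary genes (bottom) in the 12 arrays (vertical axis, log2) by group; points are arrays, horizontal marks group means and bars SD (n = 3). Sox9 lies between 5.70 and 6.79 in all knockout arrays and at 8.56 to 8.96 in wild-type XY, and Fst lies between 5.58 and 6.44 in all knockout arrays.

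All 20 listed ovary genes were measured, and 0 passed between the knockout sexes. At an unadjusted p under 0.05 stood 3 higher in XY (background 5.42%) and 1 lower (background 4.46%), with a median of 0.17 against 0.03 over all autosomal genes. In wild type 0 of the 20 were higher and 4 lower at that level (background 3.17%), with a median near 0. The list was chosen with earlier results of these data known.

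Among the ligands, Rspo1, the R-spondin that amplifies Wnt signalling in the XX gonad, was at 8.61, 8.45 and 8.73 in knockout XX and at 8.84, 8.80 and 8.89 in knockout XY. The XY arrays all lay above the XX arrays, by 0.25 ± 0.11 (adjusted p = 0.496). Wnt4, the ovarian Wnt ligand, was at 10.22, 10.19 and 10.62 in XX and at 10.53, 10.45 and 10.71 in XY, overlapping, with a difference of 0.22 ± 0.15. The growth factor Bmp2 differed by -0.10 ± 0.18 and the Kit ligand gene Kitl by -0.05 ± 0.16.

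The receptors and their regulators gave the widest values of the list. Lgr5, a receptor for R-spondins, was at 4.05, 4.77 and 3.97 in knockout XX and at 4.64, 5.11 and 4.90 in knockout XY. One XX array exceeded the lowest XY array, and the difference of 0.62 ± 0.21 did not pass (adjusted p = 0.448). It was 0.16 with the Actb covariate, and the other Lgr5 probe set gave -0.08. Rnf43, a ligase that removes Wnt receptors, was at 4.83, 4.53 and 4.16 in XX and at 5.23, 4.72 and 4.92 in XY (0.45 ± 0.17, adjusted p = 0.455), with -0.27 under the Actb covariate. Its paralogue Znrf3, which acts in the same way, was at 9.43, 9.46 and 9.33 in XX and at 8.79, 8.98 and 9.22 in XY (-0.41 ± 0.15, adjusted p = 0.454). The 2 ligases thus had opposite signs in the probe sets used, and neither passed. The other Znrf3 probe set gave 0.122, the same sign as Rnf43, and Rnf43 lay below the array median in every knockout array.

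None of the genes that execute the ovarian course passed between the knockout sexes. Fst, the activin antagonist follistatin, was at 5.60, 5.71 and 5.90 in knockout XX and at 5.58, 5.90 and 6.44 in knockout XY (0.24 ± 0.29, interval from -0.39 to 0.86). Foxl2, the forkhead factor of granulosa cells, was at 5.82, 6.13 and 5.92 in XX and at 5.98, 6.16 and 6.0 in XY (0.09 ± 0.18). Wild-type differences of this pair were -0.69 and -0.55, and neither passed there. With the Gapdh covariate their knockout values were -0.05 and -0.14. Irx3 and Irx5, homeobox genes of the ovary, differed by 0.16 ± 0.25 and 0.33 ± 0.19, the runt factor Runx1 by 0.30 ± 0.24 and the cell cycle inhibitor Cdkn1b by -0.16 ± 0.21. The other Runx1 probe sets gave knockout values from -0.141 to 0.196. The remaining members, Axin2, Ctnnb1, Fzd1, Gng13, Lef1, Msx1 and Sprr2d, lay between -0.16 and 0.34.

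A wider list of Wnt targets and feedback genes gave 2 of 20 measured members higher in XY and 3 lower at an unadjusted p under 0.05 (backgrounds 5.42% and 4.46%), 0 passing, with a median of -0.03. The lower 3 were the Wnt antagonists Dkk2 (-0.88 ± 0.39) and Sfrp2 (-0.41 ± 0.17) and the cyclin Ccnd1 (-0.36 ± 0.17). Dkk2 lay at 6.81, 6.93 and 5.69 in knockout XX and at 6.38, 5.40 and 5.01 in knockout XY, which overlap, and its wild-type difference was -0.67.

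**Figure D4:**
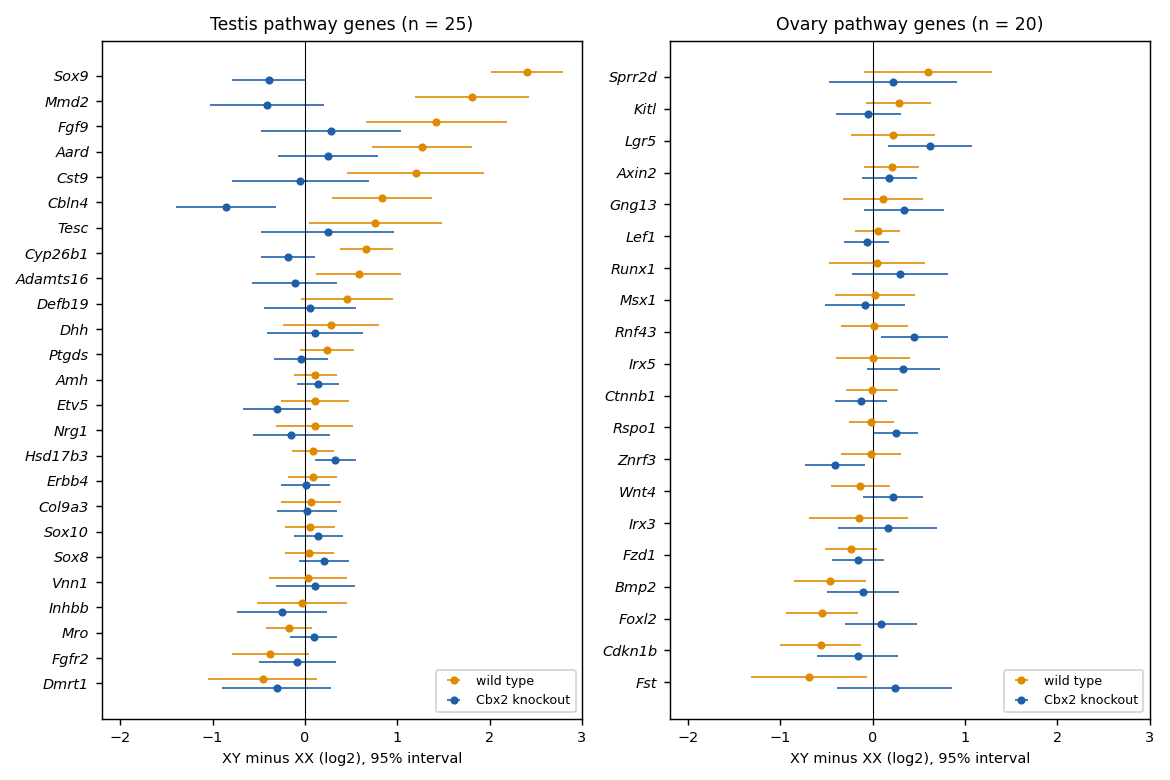
XY minus XX differences (horizontal axis, log2) with 95% intervals for the 25 testis genes (left) and 20 ovary genes (right), in wild type and in Cbx2 knockout, ordered by the wild-type value. Wild-type values reach 2.41 at Sox9, while knockout values of the testis genes lie between -0.85 and 0.33 and those of the ovary genes between -0.41 and 0.62.

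In wild type 5 autosomal genes passed, all higher in XY (0.0287%): Sox9, Mmd2, the ion channel subunit Cnga1, the kinase Map3k21 and the ribonuclease Rnase1. Their knockout differences were -0.39, -0.41, -0.25 ± 0.22, -0.06 ± 0.29 and 0.20 ± 0.18 in that order, against 2.41, 1.81, 1.36, 1.78 and 1.14 in wild type. With the Gapdh covariate the knockout value of Map3k21 was 1.01 and that of Cnga1 0.09. With all probe sets of a gene averaged, 4 genes passed in wild type. Mmd2 and Map3k21 were lost there, and Abcb1a, named after its values were seen, was gained. The wild-type count rested on single arrays. It was 1806 without wild-type XX replicate 1 and 1 or 2 without any 1 of wild-type XX replicates 2 and 3, wild-type XY replicates 1 and 3, knockout XX replicates 2 and 3 and the 3 knockout XY arrays. With the replicate number as a block over all 12 arrays, 6 passed, 5 higher and 1 lower: Rnase1 was lost, and Fbln2 and Glra1, named after their values were seen, were gained. Sox9 passed there and in each of the smaller sets, and each of the other 4 was lost in most of the smaller sets. The interaction counted 10 genes without wild-type XX replicate 1, and 2 without knockout XX replicate 2 or knockout XY replicate 1. At an unadjusted p under 0.05 (6.37% of autosomal genes) the interaction was lower for 8 of the 25 testis genes (background 3.9%) and higher for 0 (background 2.47%). The testis list was chosen with the wild-type results known, and the interaction contains those values. This count is therefore no evidence of its own. Of the 20 ovary genes 2 were higher (background 2.47%) and 0 lower (background 3.9%), with the same limit.

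Across all autosomal genes the sex differences of the genotypes had a Pearson correlation of 0.25 and a Spearman correlation of 0.19. These are correlations across genes, which are not independent, of contrasts that share no array but do share platform and normalization. The sign agreed in 9749 genes (56.0%), and in 1058 of the 1719 genes at an unadjusted p under 0.05 in knockout (61.5%). Of those 1719, 927 had a second probe set, and it had the same sign in 616 (66.5%), against 5153 of 8677 (59.4%) for all autosomal genes with several probe sets.

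No early gonad factor passed between the knockout sexes. Of 16 measured, 0 passed, 0 were higher and 1 lower at an unadjusted p under 0.05 (backgrounds 5.42% and 4.46%), and the median was -0.05. The lower 1 was Gadd45g, a stress-response gene needed for timely Sry expression, at 8.01, 7.98 and 8.68 in knockout XX and 7.64, 7.90 and 7.57 in knockout XY (-0.52 ± 0.18, adjusted p = 0.442). The groups did not overlap, and the Actb covariate turned the value to 0.20. Its partner kinase Map3k4 differed by 0.15 ± 0.12. The other Map3k4 probe sets gave 0.179, -0.16 and -0.692, so its direction depended on the probe set. The insulin-like growth factor receptor Igf1r differed by -0.22 ± 0.14. Interstitial and steroidogenic genes (17 measured) had 0 members at that level in either direction and a median of -0.02. The widest named values there were the corticotropin receptor Mc2r (-0.44 ± 0.27) and the nuclear receptor Nr2f1 (0.25 ± 0.18).

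No gene of the Polycomb machinery passed. Among 17 PRC1 subunits 0 were at an unadjusted p under 0.05 either way (median -0.02), with Phc2 at 0.30 ± 0.16, Pcgf3 at -0.23 ± 0.12 and the Cbx2 paralogue Cbx8 at 0.19 ± 0.11. Among 11 members of the PRC2 list 1 was higher and 2 lower (backgrounds 5.42% and 4.46%). The catalytic subunits were that pair: Ezh2 lay at 12.06, 11.99 and 12.16 in knockout XX and at 11.62, 11.76 and 11.76 in knockout XY (-0.36 ± 0.16, adjusted p = 0.491), and Ezh1 differed by -0.30 ± 0.13. Neither overlapped between the sexes. The histone-binding subunit Rbbp4 was at 0.23 ± 0.10. Averaging all probe sets turned Ezh1 to 0.02 and Rbbp4 to -0.06. Of 33 Hox genes, classical Polycomb targets, 1 was higher and 2 lower, against the same backgrounds, with a median of 0.01. Hoxd3 was at 7.95, 8.50 and 8.10 in knockout XX and at 7.66, 7.35 and 7.31 in knockout XY (-0.74 ± 0.23, adjusted p = 0.421), its neighbour Hoxd1 differed by -0.49 ± 0.15 and Hoxc9 by 0.32 ± 0.13.

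The genes nearest to passing were not gonad regulators. Genes in this paragraph were named after their values were seen. Xpo5, which exports microRNA precursors from the nucleus, was at 8.95, 8.82 and 8.80 in knockout XX and at 8.15, 8.22 and 8.33 in knockout XY (-0.62 ± 0.10, adjusted p = 0.0655). Its groups did not overlap, but its second probe set gave -0.055. Olfm4, a secreted protein of neutrophils and gut stem cells, was at 6.46, 6.64 and 5.74 in XX and at 4.21, 3.62 and 5.13 in XY (-1.96 ± 0.33, adjusted p = 0.0779). Amy1 was at 6.0, 5.0 and 4.52 in XX and at 3.79, 3.48 and 3.69 in XY (-1.52 ± 0.26, adjusted p = 0.0811), and at -1.11 without knockout XX replicate 1 (adjusted p = 0.0347, with 0.00606 to 1.0 spanned across alternatives). In wild type Olfm4 differed by -0.31 and Amy1 by -0.12. Next came the cytokine Il18 (0.61 ± 0.11, adjusted p = 0.12), the glutamate transporter Slc1a1 (0.58 ± 0.11, adjusted p = 0.121) and the mitochondrial fusion gene Miga1 (-0.62 ± 0.12, adjusted p = 0.121). Miga1 was the one of these whose wild-type difference was of like size, at -0.57, but its second probe set gave 0.128 in knockout. The other Slc1a1 probe sets gave 0.161 and 0.021. Il18 lay between 6.57 and 6.71 in knockout XX and between 7.18 and 7.33 in knockout XY.

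Of the 11 genes lower in XY by 1 or more, 10 besides Amy1 were liver, neutrophil or red cell genes, and the 1 gene higher by as much (1.02) is unnamed in the annotation. The liver and neutrophil lists were drawn up after these values were seen, so their counts are a description. Afp, the fetal liver protein alpha-fetoprotein, was at 11.41 in knockout XX replicate 1 and at 6.21 and 5.57 in the other knockout XX arrays, with 5.87, 5.62 and 5.91 in knockout XY. Alb (albumin) was at 9.33 in that array, Ambp at 8.16, Rbp4 (the plasma retinol carrier) at 8.17, Serpina6 at 6.41, Fgb at 6.33 and Fgg at 6.11. Not all members were raised in it, with Ahsg at 5.36 and Apob at 5.41. At an unadjusted p under 0.05 stood 1 of 14 higher and 0 lower (backgrounds 5.42% and 4.46%), and 3 were above 0 and 11 below. The higher 1 was the plasma protein gene Apoh, at 5.29, 5.59 and 4.95 in knockout XX and at 5.97, 6.46 and 6.17 in knockout XY, without overlap (0.92 ± 0.23, adjusted p = 0.361). Its other probe set gave 0.12. The mean over 14 liver genes was 6.84 in that array and between 4.71 and 5.21 in the other 11. Without it the Afp difference went from -1.93 to -0.09, Alb from -1.32 to -0.02 and Rbp4 from -1.30 to -0.14, and the median of the 14 from -0.48 to 0.02. Ambp turned to 0.35, Fgg to 0.30, Fgb to 0.02 and Serpina6 to 0.02 without that array.

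Neutrophil genes followed a different pattern. Of 13 measured, 8 were lower at an unadjusted p under 0.05 (background 4.46%) and 1 higher (background 5.42%), 6 of the lower without overlap (background 7.96%), 0 passed, and the median was -0.83, or -0.82 without knockout XX replicate 1. Ngp, a granule protein, was at 8.85, 9.66 and 7.84 in knockout XX and at 6.49, 7.14 and 8.54 in knockout XY (-1.39 ± 0.46). The calgranulin S100a8 was at 8.75, 8.63 and 7.88 in XX and at 5.43, 7.41 and 7.85 in XY (-1.53 ± 0.66), and turned to 0.75 with the Actb covariate. S100a9 differed by -1.13 ± 0.31, Lcn2 by -1.05 ± 0.29, the stefins Stfa2l1 and Stfa3 by -0.97 ± 0.24 and -0.97 ± 0.26, and Camp by -0.83 ± 0.25. The other 5 members were above 0, the granule enzymes Mpo at 0.47 ± 0.32, Elane at 0.40 ± 0.14 and Prtn3 at 0.21 ± 0.12 and the proteases Mmp8 at 0.17 ± 0.12 and Mmp9 at 0.07 ± 0.12, though Mpo turned to -0.47 and Prtn3 to -0.05 with the Actb covariate. The list mean spanned 5.89 to 6.51 in knockout XX and 5.24 to 6.05 in knockout XY, so the groups overlapped.

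Red cell genes had mostly values below 0. Of 9 autosomal members measured, 4 were lower (background 4.46%) and 1 higher (background 5.42%) at an unadjusted p under 0.05, 0 passed, and the median was -0.56, or -0.85 without knockout XX replicate 1, beside 0.04 in wild type. The Rh-associated membrane protein Rhag was at 7.13, 7.82 and 6.22 in knockout XX and at 5.56, 5.42 and 6.56 in knockout XY (-1.21 ± 0.34, adjusted p = 0.415). The embryonic globin Hba-x differed by -0.78 ± 0.29, the anion exchanger Slc4a1 by -0.74 ± 0.27 and the membrane protein Epb42 by -0.71 ± 0.28. The erythroid nuclear gene Hemgn, which is not a member of the list and was named after its values were seen, differed by -1.11 ± 0.33. In these bulk pools fewer cells of a type and less RNA per cell cannot be told apart. The list mean spanned 9.15 to 9.81 in knockout XX and 8.57 to 9.31 in knockout XY, and its part in other values was not tested.

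**Figure D5:**
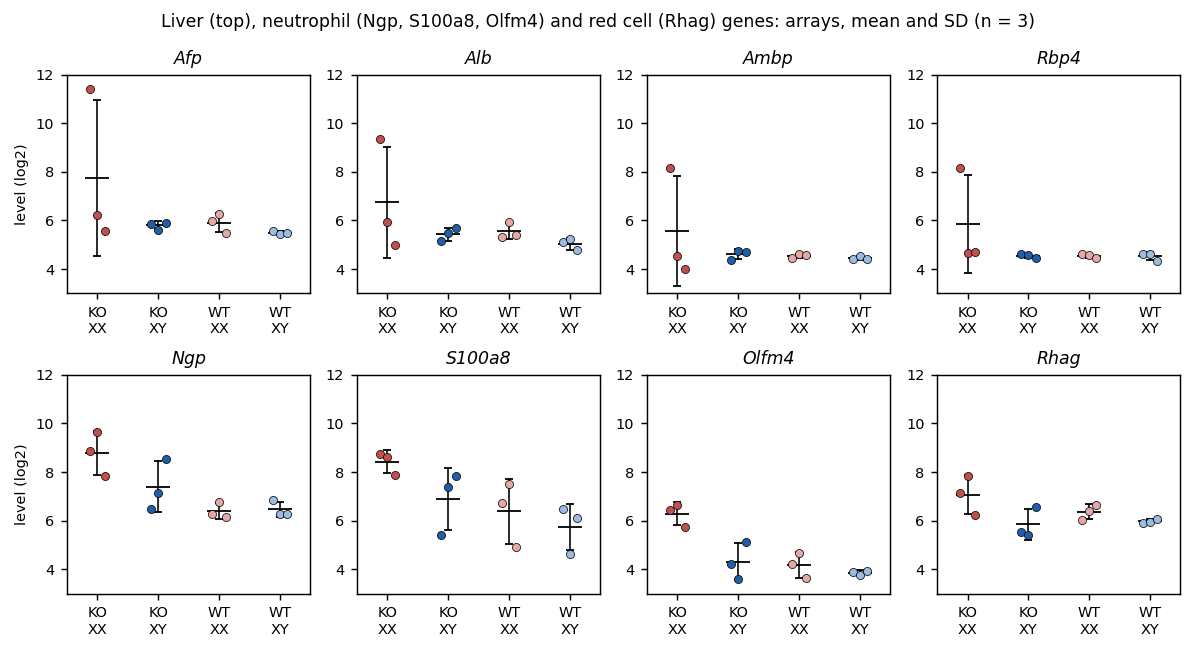
Levels of 4 liver genes (top) and of the neutrophil genes Ngp, S100a8 and Olfm4 and the red cell gene Rhag (bottom) in the 12 arrays (vertical axis, log2) by group; points are arrays, horizontal marks group means and bars SD (n = 3). Afp stands at 11.41 in 1 knockout XX array and between 5.42 and 6.26 in the other 11 arrays, while Olfm4 lies at 5.74 to 6.64 in knockout XX and 3.62 to 5.13 in knockout XY.

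Of the other cell types that the captured tissue could hold, no marker passed. Germ cell genes (22 measured) had 1 member higher and 2 lower at an unadjusted p under 0.05 (backgrounds 5.42% and 4.46%), with a median of 0.02. Piwil2, a Piwi protein of the germ line, was at 7.63, 7.0 and 6.92 in knockout XX and at 6.29, 7.10 and 5.41 in knockout XY (-0.92 ± 0.33). The germ cell specifier Prdm1 differed by -0.37 ± 0.11 and the genome defence gene Tex19.1 by 0.44 ± 0.16, both without overlap. The pluripotency factor Pou5f1 and the germ cell helicase Ddx4 differed by 0.17 ± 0.18 and 0.06 ± 0.24. Endothelial genes (21) had 1 higher and 1 lower, against the same backgrounds, with a median of -0.12, or 0.04 without knockout XX replicate 1. The vascular factor Sox17 was at 0.50 ± 0.22, or -0.05 with the Actb covariate, and the sialomucin Emcn at -0.39 ± 0.18.

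Macrophage genes (14) had 0 at that level either way, against 5.42% higher and 4.46% lower over all autosomal genes (median -0.01, or 0.24 without knockout XX replicate 1), and their defining receptor Csf1r spanned 10.25 to 11.39 over the knockout arrays. The complement gene C1qb differed by 0.47 ± 0.26 and the leukocyte phosphatase Ptprc by -0.52 ± 0.28. Mesonephric genes (12) had 1 higher and 2 lower, against the same backgrounds, with a median of -0.07. The epithelial adhesion genes Epcam (-0.57 ± 0.23) and Cdh1 (-0.39 ± 0.17) were the lower pair and the tubule signal Wnt9b (0.30 ± 0.13) the higher. Coelomic epithelium (13, median -0.12) and neural genes (13, median 0.05) had 0 either way. Smooth muscle genes (10, median 0.08) had 1 higher and 0 lower, again beside 5.42% and 4.46%, the 1 being the contractile protein Cnn1, at 0.52 ± 0.22 with 1 knockout XY array at 5.26 and the other 5 knockout arrays between 3.94 and 4.19.

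Most mitochondrial and ribosomal genes had small values above 0. Respiratory chain genes (82) had a median of 0.18, with 70 above 0, beside 9932 of 17404 autosomal genes, 15 higher and 2 lower at an unadjusted p under 0.05 (backgrounds 5.42% and 4.46%), and 25 higher without overlap (background 9.13%). Ndufb8, a subunit of complex I, was at 11.62, 11.49 and 11.56 in knockout XX and at 12.07, 11.87 and 12.06 in knockout XY (0.44 ± 0.12, adjusted p = 0.415). The ATP synthase subunit Atp5b ran the other way, at -0.41 ± 0.14. Mitochondrial ribosomal proteins (76) had a median of 0.16, with 61 above 0, 11 higher and 0 lower against the same backgrounds, among them Mrpl28 (0.43 ± 0.11), Mrpl41 (0.43 ± 0.16) and Mrpl52 (0.42 ± 0.15). Cytosolic ribosomal proteins (46) had a median of 0.08, with 6 higher and 0 lower, again against 5.42% and 4.46%, led by Rpl14 (0.53 ± 0.14). In wild type the medians of the 3 lists were 0.16, 0.19 and 0.10, and the knockout medians were 0.29, 0.34 and 0.11 with the Gapdh covariate and 0.23, 0.28 and 0.15 with the Actb covariate. None of their members passed, and the Gapdh and Actb control differences were higher in the same arrays.

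Proliferation genes (23) had 17 members below 0, beside 7472 of 17404 autosomal genes, with a median of -0.13, 0 higher and 3 lower at an unadjusted p under 0.05 (backgrounds 5.42% and 4.46%), and 7 lower without overlap (background 7.96%). The mitotic kinesin Kif11 was at 8.50, 8.71 and 9.09 in knockout XX and at 8.23, 8.12 and 8.32 in knockout XY (-0.55 ± 0.16, adjusted p = 0.415). The other Kif11 probe sets gave -0.15 and 0.016. The spindle kinase Aurka differed by -0.41 ± 0.18 and the replication clamp Pcna by -0.29 ± 0.12. The wild-type median of this list was 0.06. Against the same backgrounds retinoic acid genes (15, median -0.03) had 1 higher, the binding protein Crabp1 (0.63 ± 0.21), and 1 lower, the retinol dehydrogenase Rdh10 (-0.51 ± 0.19), both without overlap.

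Stress and matrix genes had no member that passed. Immediate early genes (16, median -0.03) had 1 higher and 0 lower at an unadjusted p under 0.05 (backgrounds 5.42% and 4.46%), and heat shock (11, median -0.05) and hypoxia and glycolysis genes (16, median 0.01) had 0 either way. Collagens (40, median 0.01) had 2 higher and 0 lower against the same backgrounds, with Col22a1 at 0.46 ± 0.12 and Col17a1 at 0.28 ± 0.11. The zinc finger genes named Zfp (322, median -0.01) had 10 higher and 12 lower, shares below the 5.42% and 4.46% of all autosomal genes, and of these Zfp773 differed by 0.50 ± 0.11 and Zfp9 by -0.68 ± 0.17.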

How the data were processed

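Per the submitters' processing notes, which name Affymetrix Expression Console, RMA and affy without versions, the authors deposited RMA log2 values for 45101 probe sets on 12 arrays. RMA corrects background, quantile-normalizes and summarises probes, so shifts shared by all genes of an array are removed. Values from 2.37 to 15.01 were used as given. Of the probe sets 64 were controls, 34945 named a single gene, 932 several and 9160 none. Identifiers of 34741 matched the RefSeq table, which placed genes on chromosomes: 617 on X, 9 on Y and 161 on none. A gene took its probe set with the highest mean. Arrays were grouped by title and genotype label, and none was left out.

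Differences were fitted with limma 3.58.1 in R 4.3.3 (lmFit, eBayes, 4 group means, 8 residual degrees of freedom), two-sided, adjusted by Benjamini-Hochberg over all 18193 genes. P-values reflect the spread between pools, and the number of arrays limits precision. Control measures were compared by two-sided exact permutation tests. The steps were tested on simulated data. Deviations of same-numbered arrays correlated at -0.063, 0.264 and 0.067 in knockout and at 0.237, 0.102 and 0.104 in wild type. Between arrays of different genotype such correlations ran from -0.211 to 0.278. A shared number therefore does not establish a pair in either genotype. The main fits treated arrays as unpaired, and the replicate number entered only the alternative fit with a replicate block.

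The members and the gene lists were chosen with earlier results of these data known. Named genes were Xist, Eif2s3y and Cbx2, up to 12 largest each way that passed in knockout without overlap, up to 5 each way that passed the interaction, testis and ovary list members, and up to 4 members with the smallest p of other lists. Predicted genes were not named, and genes outside the rule are said to be so. Alternatives covered normalization, low values, probe sets, variance prior, array weights, replicate block, control covariates, groups fitted, adjustment and each array left out. The Actb covariate was chosen after seeing the data.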

Additional observations from a re-analysis of the deposited data

Results flagged for a closer look

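The sex difference of Sox9 differed between the arrays labelled knockout and wild type. In the interaction test it was -2.80 (adjusted p = 0.000576), with every wild-type XY array above every wild-type XX array and no such excess in the knockout arrays. The value came from the test of the difference itself, over 12 arrays.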

How the results depend on the processing

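The count of 0 autosomal genes between the knockout sexes became 6 with the Gapdh covariate and 3 with only the knockout arrays, and ran from 0 to 3 with 1 array left out. The wild-type count of 5 became 2 with genes of mean above 6 only, 3 with a trended robust prior, 1143 with array weights, 1 with only the groups compared, 1 with adjustment over autosomal genes, 1 with the Actb covariate, and 1 to 1806 with 1 array left out. The interaction count of 1 became 3 with array weights, 0 with the Gapdh covariate, 0 with the Actb covariate, and 1 to 10 with 1 array left out. The Gapdh difference of 0.867 ran from 0.748 to 0.959 with 1 array left out. With the replicate block the counts were 0 in knockout, 6 in wild type (5 higher, 1 lower, without Rnase1) and 1 for the interaction. The numbers were not shown to pair arrays. In knockout 2 of 6 arrays correlated best with their own number, and in wild type 4 of 6 did. Counts at an unadjusted p under 0.05 in knockout were 3035 with the Gapdh covariate and 419 with the Actb covariate.

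Averaging probe sets reversed Adamts16 (0.12), Etf1 (0.03), Ezh1 (0.02), Map3k21 (0.01), Map3k4 (-0.13), Msx1 (0.04) and Rbbp4 (-0.06). The Gapdh covariate reversed Adamts16 (0.07), Bmp2 (0.00), Cnga1 (0.09), Cst9 (0.89), Foxl2 (-0.14), Fst (-0.05), Inhbb (0.01), Map3k21 (1.01), Mmp9 (-0.11), Msx1 (0.18), Nr2f1 (-0.32), Ptgds (0.23) and Vnn1 (-0.19). The Actb covariate reversed Adamts16 (0.16), Cst9 (0.34), Defb19 (-0.03), Dhh (-0.28), Etv5 (0.03), Gadd45g (0.20), Inhbb (0.40), Map3k21 (0.40), Mpo (-0.47), Msx1 (0.29), Prtn3 (-0.05), Ptgds (0.25), Rnase1 (-0.18), Rnf43 (-0.27), S100a8 (0.75), Sox10 (-0.02), Sox17 (-0.05) and Vnn1 (-0.34). Centring array medians reversed Col9a3 (-0.00) and Erbb4 (-0.02). Array weights reversed Col9a3 (-0.01). A second quantile normalization reversed Defb19 (-0.01), Erbb4 (-0.04) and Kitl (0.02). With 1 array left out the sign turned for Adamts16 (-0.19 to 0.02), Ambp (-1.72 to 0.35), Apob (-0.15 to 0.17), Bmp2 (-0.25 to 0.09), Col9a3 (-0.08 to 0.07), Cst9 (-0.22 to 0.05), Defb19 (-0.08 to 0.21), Dhh (-0.05 to 0.29), Erbb4 (-0.08 to 0.11), Fgb (-1.0 to 0.02), Fgfr2 (-0.22 to 0.01), Fgg (-0.91 to 0.30), Inhbb (-0.45 to 0.06), Irx3 (-0.05 to 0.29), Kitl (-0.22 to 0.10), Lef1 (-0.13 to 0.02), Map3k21 (-0.15 to 0.02), Mmp9 (-0.03 to 0.15), Msx1 (-0.26 to 0.09), Ptgds (-0.10 to 0.04), Serpina6 (-1.48 to 0.02) and Vnn1 (-0.09 to 0.32). Of 3152 alternative values for 139 results, 3001 kept direction and side of the threshold, 16 newly passed, 54 no longer passed and 81 reversed. The cause was not tested.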
